A study of Arabidopsis thaliana with 44 samples.

Results

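A set of 10 jasmonate genes of Arabidopsis thaliana was followed across tissues and in a line altered in the m6A methyltransferase MTA. They were 5 genes of jasmonate synthesis (LOX2 AT3G45140, LOX3 AT1G17420, AOS AT5G42650, AOC2 AT3G25770 and OPR3 AT2G06050), the receptor gene COI1 (AT2G39940), the regulators JAZ1 (AT1G19180) and MYC2 (AT1G32640), and the response genes VSP1 (AT5G24780) and VSP2 (AT5G24770). The genes were chosen by name from the pathway, found by locus identifier in the expression tables and by gene name in the m6A tables, and all 10 were present among 32833 genes. They held 138 of 188282 listed positions in the m6A table of the tissues and 38 of 50458 in that of the mta comparison.

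The first experiment covered 9 tissues of wild-type Col-0 plants with 2 replicates each. Plates gave seedlings of 7 days and shoots and roots of 14 days, soil gave rosette leaves of 30 days, and cauline leaves, flowers, stems and siliques came from plants after flowering and seeds when dry. The second experiment compared Col seedlings with mta seedlings taken at day 8, again with 2 replicates each. The mta plants carry a loss of MTA, an m6A writer subunit, that is covered only by an ABI3 promoter-driven MTA transgene active in the embryo. The harvest day of the Col seedlings beside them was not given in the sources used here. Each replicate gave an input library and a library treated with the enzyme MjDim1, which puts an allyl group on m6A so that reverse transcription leaves a mutation there (m6A-SAC-seq). The 44 libraries came to 36 for the tissues and 8 for the mta comparison, and expression was read from the input libraries.

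Jasmonate is made from linolenic acid of chloroplast membranes. Lipoxygenases such as LOX2 and LOX3 oxygenate it, allene oxide synthase (AOS) and allene oxide cyclases (AOC2) turn the product into OPDA, and the OPDA reductase OPR3 and beta-oxidation in the peroxisome complete the synthesis. The isoleucine conjugate of jasmonate joins the F-box protein COI1 to JAZ repressors, which are then degraded and release transcription factors such as MYC2. The pathway acts in responses to wounding, touch and insects and in stamen development, and the acid phosphatase-like vegetative storage proteins VSP1 and VSP2 are among its best known outputs in shoots and flowers.

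The input libraries of the tissues held 3355823 to 6903234 reads. Levels are given as CPM, read counts relative to the library total after scaling by the trimmed mean of M values (TMM), with factors of 0.618 to 1.29. The chi-square per degree of freedom between the replicates of a group was 1.06 to 1.61, close to counting noise, so p-values measure the spread between these samples only. Marker genes followed the tissue labels: root markers summed to 11290 and 11300 CPM in root and to 0 in rosette leaf, cauline leaf and seed, and flower markers to 281 and 285.6 CPM in flower. Exceptions included root markers in shoot (560.6 and 561.8 CPM) and the flower marker PI, called higher in root (log2 3.86) and shoot (1.92) as well as in flower (8.09). Flower markers also reached 74.94 and 83.58 CPM in silique. Stem markers summed to 2747 and 2798 CPM in stem, but all 3 were also called higher in silique (877.6 and 903.9) and root (83.81 and 93.81). Seed markers summed to 80700 and 84270 CPM in seed and to 11430 and 12040 in silique. In whole organs, fewer cells of a type and less RNA per cell cannot be told apart.

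All 10 genes differed between tissues. Their highest tissue was cauline leaf for LOX2 and AOC2, rosette leaf for AOS and COI1, root for LOX3, OPR3, MYC2 and JAZ1, and flower for VSP1 and VSP2. In edgeR's quasi-likelihood F test over the 9 tissues, 10 of 10 members passed at an adjusted p of at most 2.36e-38, as did 99.3% of all 21805 genes tested. In the order of tissue levels, 61 of the 80 steps between neighbouring tissues of the members passed the test (76.2%), against 30.6% over all genes. The highest tissue stood above each of the other 8 for 10 of 10 members, and for 65.2% of all genes. Both shares over all genes were taken without matching for expression level, and the order came from the same libraries that were tested.

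**Figure D1:**
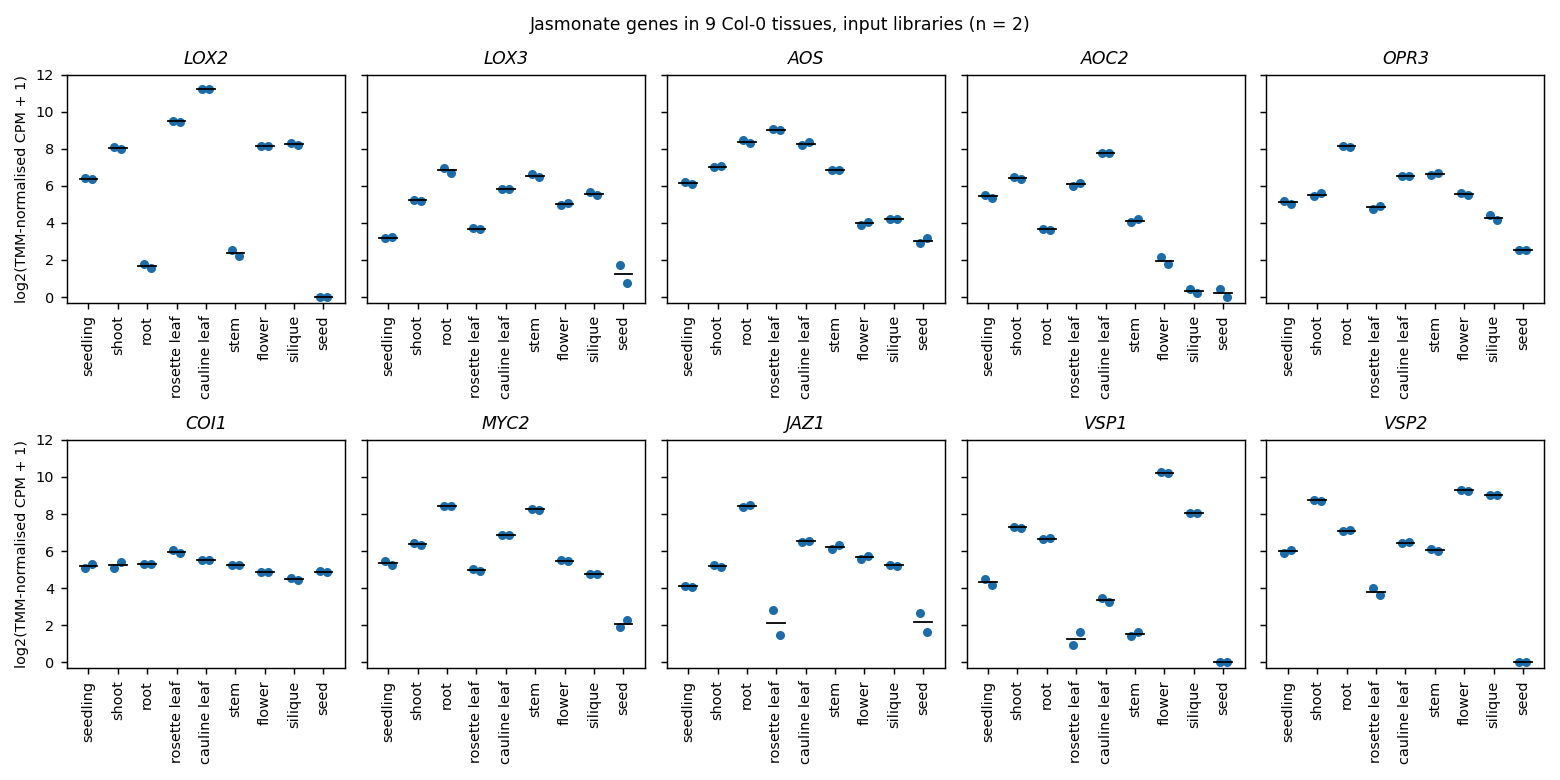
Level of each gene in the 9 Col-0 tissues, as log2 of TMM-normalised CPM + 1 on the vertical axis. Each point is 1 input library and each line the mean of the 2 points. LOX2 and AOC2 peak in cauline leaf, LOX3, OPR3, MYC2 and JAZ1 in root and VSP1 and VSP2 in flower, while COI1 stays within a narrow band.

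LOX2 encodes a chloroplast lipoxygenase and was highest in leaves, while stem, which held 21620 and 23140 CPM of leaf marker RNA, had little of it. Its levels were 2384 and 2378 CPM in cauline leaf, 729.7 and 686.8 in rosette leaf, 313.1 and 298 in silique, 285.6 and 283.3 in flower and 276.1 and 249.5 in shoot. Seedlings had 85.0 and 80.2 CPM, stems 4.75 and 3.73, roots 2.46 and 1.93, and both seed libraries had 0 reads. Cauline leaf was therefore 3.36-fold above rosette leaf (edgeR, adjusted p = 1.15e-229), and seedlings were 19.5-fold above stems (adjusted p = 1.13e-151). Silique and flower (adjusted p = 0.129) and flower and shoot (0.0884) did not pass the test. With a floor of 3 reads over both seed libraries (0.514 CPM), LOX2 was at least 4630-fold higher in cauline leaf than in seed, and at least 4.27-fold higher in root.

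LOX3 encodes another chloroplast lipoxygenase, which acts with LOX4 in stamen development, and its pattern was nearly the reverse of LOX2 for root and stem. It reached 123.7 and 103.9 CPM in root, 96.7 and 86.9 in stem, 55.2 and 54.8 in cauline leaf and 48.8 and 44.3 in silique. It was lower in shoot (36.9 and 35.9 CPM), flower (30.2 and 32.8), rosette leaf (12.3 and 11.5) and seedling (8.08 and 8.34), and lowest in seed (2.37 and 0.693). Root exceeded stem 1.25-fold (adjusted p = 5.85e-05), but the adjusted p was 0.0704 without root replicate 1 and 0.127 without the seed libraries, so the order of these neighbours rests on those libraries. Shoot and flower did not pass the test (adjusted p = 0.0983).

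AOS, the cytochrome P450 that commits the lipoxygenase product to jasmonate, was high in rosette leaf (527.9 and 514.5 CPM), root (348.1 and 312.4) and cauline leaf (291.3 and 328.9). It was intermediate in shoot (128.4 and 131.4), stem (114.5 and 115.1) and seedling (73.4 and 66.3), and low in silique (17.6 and 17.4), flower (13.9 and 15.5) and seed (6.44 and 7.97). Root and cauline leaf overlapped. Rosette leaf was 1.58-fold above root (adjusted p = 8.16e-31) with TMM scaling, whereas with plain library totals root was above rosette leaf (log2 -0.14 for rosette leaf minus root, adjusted p = 0.0166).

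AOC2 encodes an allene oxide cyclase of a family of 4 similar genes, so reads may be shared among copies. Its pattern was leafy: 215.5 and 216.7 CPM in cauline leaf, 88.0 and 82.2 in shoot, 63.2 and 70.6 in rosette leaf and 44.9 and 39.6 in seedling. Stem had 15.4 and 17.4 CPM, root 11.6 and 11.4, flower 3.39 and 2.45, silique 0.339 and 0.157, and seed 0.339 and 0. Cauline leaf was 2.54-fold above shoot (adjusted p = 5.14e-78), and silique and seed could not be separated (adjusted p = 0.795).

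OPR3, which reduces OPDA in the peroxisome, was a root gene by level, with 279.4 and 276.7 CPM there. Stem (93.1 and 100.6) and cauline leaf (91.1 and 90.6) followed and did not differ (adjusted p = 0.388). Flower had 47.5 and 44.7 CPM, shoot 42.2 and 47.8, seedling 35.0 and 31.7, rosette leaf 25.7 and 29.3, silique 20.3 and 16.7, and seed 4.74 and 4.85. Root was 2.87-fold above stem (adjusted p = 2.46e-108).

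COI1 was the most even of the members, with a mean of 61.4 CPM in rosette leaf and 21.4 CPM in silique at the extremes. Rosette leaf had 65.2 and 57.6 CPM, cauline leaf 45.1 and 44.2, root 37.8 and 38.3, stem 37.8 and 37.5, shoot 33.1 and 41.0 and seedling 33.3 and 38.3. Dry seed still held 29.1 and 28.1 CPM, flower 28.4 and 28.2, and silique 22.4 and 20.3. Root, stem, shoot and seedling formed a run of neighbours that did not pass the test (adjusted p from 0.756 to 0.938). Rosette leaf was 1.38-fold above cauline leaf (adjusted p = 9.04e-05), but not with plain library totals (adjusted p = 0.613).

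MYC2, the basic helix-loop-helix activator of the pathway, was high in root (349.5 and 343.9 CPM) and stem (310.9 and 301.3). Cauline leaf had 117.6 and 114.2 CPM, shoot 86.4 and 79.9, flower 44.3 and 43.2, seedling 42.6 and 37.6, rosette leaf 32.2 and 29.3, silique 25.9 and 26.1, and seed 2.71 and 3.81. Root and stem differed 1.13-fold (adjusted p = 0.00237), a gap that was lost without stem replicate 2 (adjusted p = 0.0506) and without the seed libraries (log2 -0.0121, adjusted p = 0.88). Stem stood 2.63-fold above cauline leaf (adjusted p = 7.94e-93).

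JAZ1, a repressor that is itself switched on by jasmonate, was far higher in root than anywhere else. Its levels were 335.7 and 353.7 CPM in root, 90.3 and 91.9 in cauline leaf, 69.1 and 78.7 in stem, 47.5 and 52.4 in flower, 37.3 and 36.1 in silique and 37.7 and 34.9 in shoot. Seedling had 16.2 and 16.0 CPM, rosette leaf 6.14 and 1.75, and seed 5.42 and 2.08. Root exceeded cauline leaf 3.79-fold (adjusted p = 6.15e-175). Silique and shoot (adjusted p = 0.921) and rosette leaf and seed (0.837) were not separated.

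VSP1 and VSP2, the response genes, peaked in flower and not in the tissues that led for LOX3, OPR3, MYC2 and JAZ1. VSP1 had 1207 and 1173 CPM in flower, 260.4 and 268.8 in silique, 158 and 152.2 in shoot and 98.1 and 104.4 in root. It fell to 21.9 and 16.9 in seedling, 10.1 and 8.38 in cauline leaf, 1.66 and 2.07 in stem, 0.877 and 2.096 in rosette leaf and 0 reads in both seed libraries. Flower was 4.5-fold above silique, with the 2 libraries of each tissue far apart from those of the other.

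VSP2 ranged less. It had 626.6 and 610.5 CPM in flower, 512.8 and 518.5 in silique, 436.1 and 418.8 in shoot and 134.1 and 137.9 in root, then 84.3 and 88.0 in cauline leaf, 67.4 and 62.7 in stem, 58.7 and 66.4 in seedling and 14.9 and 11.5 in rosette leaf, with 0 reads in seed. Flower was 1.2-fold above silique (adjusted p = 1.89e-06), a gap that did not pass in the treated libraries (adjusted p = 0.208). Relative to the seed floor of 0.514 CPM, VSP1 was at least 2310-fold and VSP2 at least 1200-fold higher in flower. The VSP genes are close copies of each other, so a part of these reads could belong to either gene.

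Levels between genes were compared only per kilobase of transcript. On that scale (mean CPM per kb) the highest values were 889.4 for VSP1 in flower and 732.2 for LOX2 in cauline leaf. VSP2 in flower had 408.0, AOS in rosette leaf 256.5, JAZ1 in root 191.1, AOC2 in cauline leaf 166.3, OPR3 in root 163.0, MYC2 in root 105.4 and LOX3 in root 36.9. COI1 stayed between 8.503 and 24.4 in every tissue, below the peak level of each of the other 9 genes.

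Each tissue was then set against the mean of the other 8 in the same edgeR fit. Because LOX2, VSP1 and VSP2 had no reads in seed, their calls in this contrast depend on how the fit treats 0, and counts are also given for the other 7 members. In cauline leaf 9 of 10 members were higher, against 34.5% of all genes higher and 22.0% lower, and 7 of the 7 with reads in seed. In root 7 of 10 were higher (43.7% of all genes higher, 28.2% lower), among the 7 with seed reads LOX3, AOS, OPR3, MYC2 and JAZ1. JAZ1 in root stood at a log2 difference of 3.84, OPR3 at 3.06, MYC2 at 2.98, LOX3 at 2.43 and AOS at 2.35. In stem 6 of 10 were higher (35.1% and 19.0% of all genes), all among the 7, led by MYC2 (log2 2.78) and LOX3 (2.07), and in shoot 7 of 10 (36.7% and 17.1%) but 4 of the 7 with seed reads.

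The remaining tissues were mixed. In flower 5 members were higher and 4 lower (41.5% and 19.4% of all genes), or 2 and 4 of the 7 with seed reads, with AOS at log2 -2.70 and AOC2 at -2.05 on the low side. In silique 5 were higher and 5 lower (42.5% and 20.5%), or 2 and 5 of the 7. In rosette leaf 4 were higher and 4 lower (30.0% and 23.7%), or 3 and 4 of the 7, and in seedling 2 and 5 (37.2% and 19.3%), or 1 and 5 of the 7. In rosette leaf the synthesis genes LOX2 (log2 4.48), AOS (3.09) and AOC2 (2.999) were higher while JAZ1 (-3.33), LOX3 (-1.24), MYC2 (-0.94) and OPR3 (-0.70) were lower. In seed all 10 members were lower, against 41.6% of all genes lower and 32.0% higher. With plain library totals AOS in seedling and COI1 and MYC2 in flower changed sign and were no longer called, and the median of all genes moved by between -0.758 (seed) and 0.405 (shoot) on the log2 scale.

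Early wound and touch genes, listed apart from the pathway genes, were also high in root and stem. The summed level of 8 such genes (ERF109, WRKY40, WRKY33, ZAT10, ZAT12, TCH2, TCH3 and TCH4) was 2200 and 2252 CPM in root and 2083 and 2113 in stem, the tissues with most MYC2 and LOX3. Cauline leaf followed with 1439 and 1450 CPM, shoot with 908.7 and 919.8, silique with 470.5 and 493.7 and seedling with 344.5 and 358. Flower had 234.3 and 239.1, seed 175.4 and 194.9 and rosette leaf 146.2 and 168.7. Each of the 8 was called higher in root, stem, cauline leaf and shoot (43.7%, 35.1%, 34.5% and 36.7% of all genes). In rosette leaf 7 of 8 were lower (23.7%) and in flower 8 of 8 (19.4%). The members did not always go with them. JAZ1 was 4.65-fold and OPR3 2.87-fold lower in stem than in root. In flower JAZ1 (log2 0.70) and LOX3 (0.33) were called higher, MYC2 (-0.37) lower and OPR3 was not called. The part of wounding or handling at harvest in the levels of MYC2, JAZ1, LOX3 and OPR3 was not tested.

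**Figure D2:**
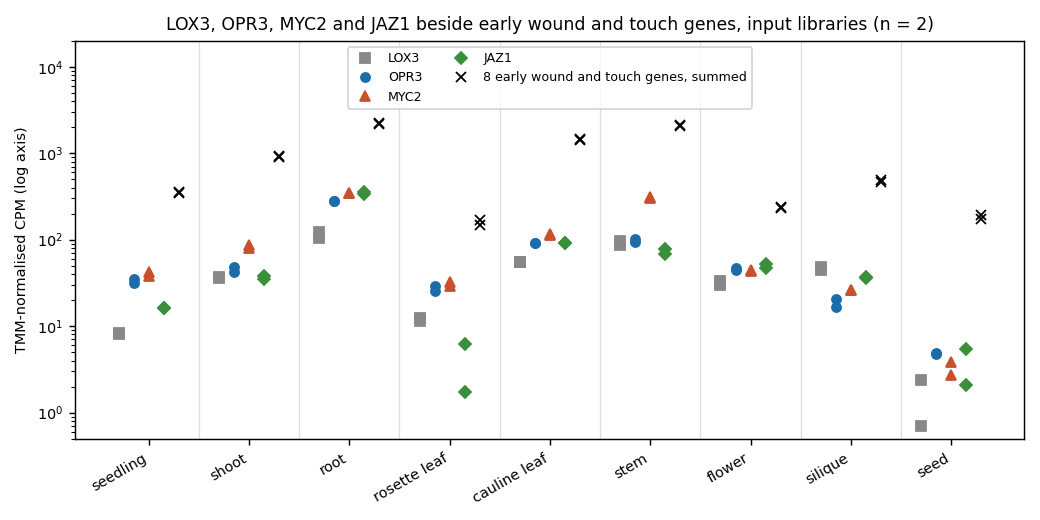
LOX3, OPR3, MYC2 and JAZ1 beside the summed level of 8 early wound and touch genes, as TMM-normalised CPM on a log axis, by tissue. Each symbol is 1 input library. Root and stem carry most MYC2, LOX3 and summed wound and touch RNA, and JAZ1 in rosette leaf lies at 6.14 and 1.75 CPM where the summed level is also lowest.

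Another 57 genes of the pathway were listed by role. Their counts stand beside shares over all genes of 43.7% higher and 28.2% lower in root, 34.5% and 22.0% in cauline leaf, 35.1% and 19.0% in stem and 30.0% and 23.7% in rosette leaf. These shares were 36.7% and 17.1% in shoot, 41.5% and 19.4% in flower and 32.0% and 41.6% in seed. Of 13 further synthesis genes, 8 were higher and 4 lower in root, 10 and 2 in cauline leaf and 2 and 6 in rosette leaf, with AOC3 at log2 5.98 in root and LOX4 at 3.12 in stem. In seed 4 were higher and 7 lower, the higher ones near the share over all genes. Among those 4 was the thiolase KAT2 (log2 2.46), which also serves the breakdown of storage oil. Of 11 turnover genes, 9 were higher in root, 9 in cauline leaf and 10 in stem, whereas 7 were lower in rosette leaf. A large difference was not always called, as for JOX1 in root (log2 -3.73), so counts of calls can miss such genes. CYP94B3, which oxidises the active hormone, was at log2 6.89 in root, and the methyltransferase gene JMT at 6.52 in silique.

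Of 13 JAZ and corepressor genes, 9 were higher in root and 8 each in cauline leaf, stem and flower, with JAZ10 at log2 4.58 in root. Of 10 tested transcription factor genes, 5 were higher in each of root, stem and cauline leaf, which in root is near the share over all genes, and MYB21, a stamen regulator, was at log2 10.78 in flower. The 9 response genes differed from this order: 8 were higher in shoot and 8 in cauline leaf but only 2 in root, where TAT3 was at log2 6.67. CORI3 reached log2 6.86 in cauline leaf, the tissue with most LOX2.

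Members also resembled one another in pairs. Across the 18 input libraries (9 tissues, 2 each, so the points are not independent), Pearson's r of log2 CPM was 0.963 between MYC2 and OPR3, 0.889 between MYC2 and LOX3, 0.877 between JAZ1 and LOX3, 0.88 between VSP1 and VSP2 and 0.846 between AOS and COI1. LOX2 had r = 0.00394 with JAZ1, and COI1 and VSP1 had r = -0.452. Among all genes, those most like each member included pathway genes: LOX4 (r = 0.979) for MYC2, AOC1 (0.973) for AOC2, MYC2 for OPR3 and CORI3 (0.940) for LOX2. The closest for LOX2 was the arginase gene ARGAH2 (0.976), for LOX3 GAUT15 (0.976), for AOS LYK4 (0.954), for COI1 NHX1 (0.921), for JAZ1 AT4G28085 (0.962), for VSP1 AT3G63450 (0.939) and for VSP2 AT2G31010 (0.974).

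The m6A tables give, for each adenosine, 1 fraction and 1 read depth per tissue with the replicates pooled, so no replicate error and no test was possible for sites. An m6A site of a tissue is here a position with the authors' calling mark and at least 20 reads. Of the 138 listed positions in the 10 genes, 135 were m6A sites in at least 1 tissue. LOX2 held 30 of them, COI1 18, LOX3 17, OPR3 13, JAZ1 12, AOC2 11, MYC2 11, VSP1 10, AOS 7 and VSP2 6.

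A selection of sites described below is shown as 21 bases of the transcribed sense strand. It holds the site called in most tissues of OPR3, JAZ1, VSP2, LOX2 and VSP1 (of tied sites the one with the highest mean fraction). Sites with large differences between Col and mta and an AOC2 position near a fraction of 1 are also included. They were read from the RefSeq TAIR10.1 assembly, whose bases matched the listed motif at 187374 of 187374 nuclear positions of the tissue table. Capitals mark the 5-base motif, with the methylated A at its centre.
OPR3 3'UTR, chr2:2359178-2359198, minus strand: atgtaaaaTGACAatgttatt
OPR3 3'UTR, chr2:2359201-2359221, minus strand: aaatgtatTGACAatacattg
JAZ1 3'UTR, chr1:6623317-6623337, plus strand: ttgcttcaAGACAagatataa
VSP2 3'UTR, chr5:8500572-8500592, minus strand: aagtacaaAGACTtcgtacta
LOX2 CDS, chr3:16528146-16528166, plus strand: cggcaaatAGACAactaagtg
LOX2 CDS, chr3:16525436-16525456, plus strand: tatgtattGTAGAgagtcctt
LOX2 3'UTR, chr3:16529297-16529317, plus strand: aatgaataAAACAaatgctcc
AOS 3'UTR, chr5:17097646-17097666, minus strand: ttaaagttCAAGCtggtaata
AOC2 CDS, chr3:9407742-9407762, plus strand: tcaccggaACACCggtaccgc
COI1 3'UTR, chr2:16672774-16672794, minus strand: gtttccacAAACTgtgtacta
COI1 3'UTR, chr2:16672614-16672634, minus strand: aaccccgaAGATTttgagaga
VSP1 CDS, chr5:8508669-8508689, minus strand: taacatcaTAAACttcgacac
The first 5 hold GAC, the LOX2 3'UTR site and the COI1 AAACT site hold AAC, and both trinucleotides belong to the RAC class (GAC or AAC), the usual context of m6A, whereas the VSP1 and AOC2 sites, the AOS 3'UTR site and the LOX2 GTAGA site lie outside it and the remaining COI1 site is of the GAT class.

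The members' sites lay mostly in coding sequence. Of the 135 sites 113 (83.7%) were in CDS and 15 (11.1%) in 3'UTRs, against 59.6% and 34.5% of all 171758 m6A sites of the table. RAC motifs made up 46.7% (50.4% of all sites) and motifs outside RAC and GAT 40.0% (32.1%). In the tissue table every m6A site of LOX2, LOX3, AOS and VSP1 was in CDS, while COI1 had 6 and JAZ1 4 in the 3'UTR. The mta comparison, described below, did list marked 3'UTR sites in Col seedlings for LOX2 (fraction 0.506, 83 reads) and AOS (0.816, 52 reads). Where a 3'UTR RAC site was called, the members' median fraction was 0.301 against 0.672 for all such sites, and for CDS RAC sites 0.165 against 0.212. These are descriptions, since the sites of a gene share its reads.

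Few sites were shared widely. Of the 135 sites, 73 (54.1%) were called in 1 tissue only, against 53.2% of all sites, and 7 (5.19%) in 6 or more tissues, against 12.9%. No member site was called in all 9 tissues, a class of 6394 sites in the table. Over tissues, 284 of the 982 combinations of a member site and a tissue with at least 20 reads were m6A sites (28.9%), against 34.8% of all combinations.

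The share of covered positions that were m6A sites differed between tissues. It was 59 of 120 for silique (49.2%, against 46.1% over all positions), 54 of 135 for cauline leaf (40.0%, 41.9%) and 55 of 136 for shoot (40.4%, 40.5%). Flower had 40 of 124 (32.3%, 36.6%) and seedling 31 of 115 (27.0%, 36.6%). Stem had 20 of 111 (25.8% of all positions), root 11 of 106 (10.4%, 29.0%) and rosette leaf 10 of 102 (9.80%, 20.6%). Root thus gave few sites although the members' median depth there was 210 reads, the highest of the tissues. Seed had 4 of 33 (12.1%, against 33.7%), all in COI1, which held 18 of the 33 covered positions. Among member positions covered in root and at least 5 other tissues, 18 of 100 had their lowest fraction in root, against 20.6% of all positions, so this measure of low root values was no more frequent in the members than elsewhere. The lowest fraction lay in stem for 24 of 105 (8.34% of all positions), in rosette leaf for 25 of 101 (17.0%) and in seed for 10 of 33 (11.2%). Silique held the highest fraction for 47 of 118 (39.8%, against 23.9%).

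The OPR3 3'UTR site at position 2359188 was the member site called in most tissues, 8 of 9. Its fraction was 0.658 in rosette leaf (26 reads), 0.614 in seedling (40), 0.493 in flower (69), 0.485 in silique (26) and 0.455 in shoot (60). It was 0.282 in cauline leaf (145 reads) and 0.226 in both stem (172) and root (1060). The 3 tissues with most OPR3 RNA thus had the 3 lowest fractions of this site. The second TGACA site of that 3'UTR, at 2359211, ran lower, from 0.074 in root (1223 reads) to 0.367 in flower (87 reads).

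JAZ1 had its broadest site in the 3'UTR at 6623327, called in 7 tissues. The fraction was 0.45 in seedling (72 reads), 0.395 in silique (178), 0.326 in stem (320), 0.323 in shoot (206), 0.32 in flower (281), 0.264 in cauline leaf (368) and 0.188 in root (3146), the tissue with most JAZ1 RNA. Rosette leaf had only 14 reads there. The VSP2 3'UTR site at 8500582 was called in 6 tissues at low fractions, from 0.101 in root (205 reads) to 0.191 in shoot (352), while VSP2 RNA was highest in flower. A link between RNA level and fraction was not tested. Of all positions covered in root and at least 5 other tissues, 20.6% had their lowest fraction in root.

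**Figure D3:**
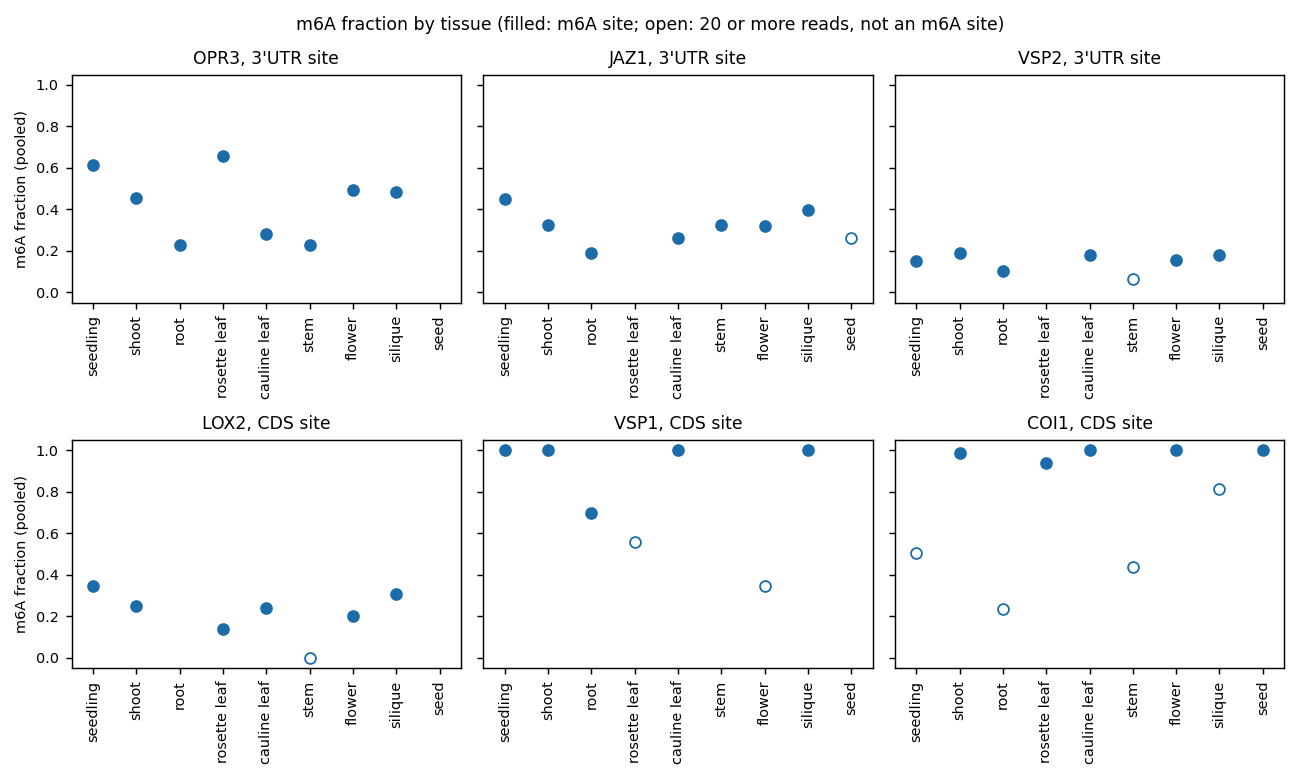
m6A fraction by tissue at the site called in most tissues for OPR3, JAZ1, VSP2, LOX2, VSP1 and COI1 (of tied sites the one with the highest mean fraction). Filled points are m6A sites and open points have 20 or more reads without the call; tissues with fewer reads are left blank, and each value pools 2 replicates. The OPR3 site falls from 0.658 in rosette leaf to 0.226 in root, and the VSP1 site is at 1 in 4 tissues but at 0.346 in flower.

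LOX2 had 3 sites called in 6 tissues, of which the CDS site at 16528156 had the highest mean fraction. Its fraction was 0.344 in seedling (157 reads), 0.248 in shoot (612), 0.307 in silique (614), 0.201 in flower (595), 0.24 in cauline leaf (4568), 0.138 in rosette leaf (1011) and 0 in stem (29 reads). Its lowest value thus lay in stem, with little LOX2 RNA, and not in cauline leaf, with the most. The equally broad sites at 16525580 and 16528838 were called in all 6 tissues with enough reads, stem not being among them. Their fractions ran from 0.111 to 0.222 and from 0.155 to 0.226. Cauline leaf had 16 called LOX2 sites and rosette leaf 4, with median depths of 2750.5 and 601.5 reads over its positions. Silique, with 380.5 reads, had the most, 25 of 30.

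In the tissue table, called fractions at or near 1 were mostly at motifs outside RAC and GAT, and whether such values reflect m6A or residual background could not be checked from pooled fractions. RAC exceptions were the COI1 3'UTR AAACT at 16672784, at 1 in seedling (51 reads), flower (70) and silique (35), and an AOC2 AAACT at 9407689, at 1 in flower (29). The VSP1 CDS site at 8508679 (TAAAC) was at 1 in seedling (67 reads), shoot (906), cauline leaf (39) and silique (1190), at 0.699 in root (809) and at 0.346 without the call in flower (4750), where VSP1 RNA was highest. The AOC2 position 9407752 (ACACC) lay between 0.971 and 1 in all 7 tissues with at least 20 reads, yet was called only in shoot and stem. The COI1 CDS site at 16675085 (AAAGC) ranged from 0.234 in root (134 reads) to 1 in cauline leaf, flower and seed, and the LOX3 site at 5979890 (TTACC) from 0.166 in root (338 reads) to 1 in stem (141) and silique (81).

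The sites called in most tissues of MYC2 and AOS had low fractions, while other sites of both genes ranged widely. The MYC2 CDS site at 11799394 (AGAGA) was called in 5 tissues with fractions from 0.161 in stem (332 reads) to 0.277 in flower (67), while root had 0.06 without the call at 784 reads. The AOS CDS site at 17099148 (AGACC) was called in 3 tissues, with fractions between 0.0693 and 0.146 over 7 covered tissues. Another AOS CDS site, at 17098927 (CAACG), ranged from 0 to 0.686 and was called in 2 of 9 covered tissues. The MYC2 CDS site at 11799840 (TTAGT) ranged from 0 to 0.627 and was called in 1 of 8.

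VSP1 and VSP2 share sequence around a listed site of each. The same 21 bases of CDS occur in both, and how reads were assigned between the copies was not tested:
VSP1, chr5:8508626-8508646, minus strand: tatgttgaAGACTacttgatc
VSP2, chr5:8501596-8501616, minus strand: tatgttgaAGACTacttgatc
The fractions at this shared AGACT were 0.114 and 0.124 in flower (4015 reads in VSP1, 2937 in VSP2), 0.117 and 0.136 in silique (1049, 2451) and 0.114 and 0.122 in shoot (810, 2456), and 0.04 and 0.159 in seedling (64, 282).

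The check of the mta line came first from MTA itself, whose transcript was reduced but present. MTA (AT4G10760) had 5.94 and 5.99 TPM in Col and 3.74 and 2.98 TPM in mta input libraries, a log2 difference of -0.68 ± 0.143 (SE; limma on log2(TPM + 1), adjusted p = 0.0119, n = 2 a group). This call was lost without Col replicate 2 or mta replicate 2 (adjusted p = 0.0509 and 0.0514), and whether reads come from the transgene or from the disrupted locus cannot be told apart. All differences below are on the log2(TPM + 1) scale, which understates the change of low genes, and the median difference over all genes was -0.14.

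In mta seedlings 3 synthesis genes rose and 3 regulatory or response genes fell. Of all 18420 genes tested, 6.31% were higher and 20.6% lower, against 30.0% of the members in each direction. In 9 of 10 members the 2 Col and the 2 mta values did not overlap. The share of such genes over all genes was not computed, so this count is a description only.

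LOX2 rose most clearly, from 51.4 and 50.7 TPM in Col to 77.0 and 76.7 in mta (log2 0.58 ± 0.0472, adjusted p = 0.000168), a ratio of means of 1.51. AOS rose from 95.0 and 98.3 to 118.8 and 121.5 TPM (0.31 ± 0.0413, adjusted p = 0.00164). Both calls held with any of the 4 libraries left out. AOC2 rose from 44.2 and 40.5 to 50.9 and 50.5 TPM (0.26 ± 0.062, adjusted p = 0.0213), a call lost without Col replicate 2 or either mta replicate (adjusted p from 0.0752 to 0.0993).

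LOX3 had 3.001 and 3.31 TPM in Col and 4.25 and 4.64 in mta (0.39 ± 0.14, adjusted p = 0.0813). It did pass with edgeR on reads recovered from the TPM values (log2 0.65, adjusted p = 0.00064) and once the median difference was set to 0 (adjusted p = 0.0331). OPR3 had 22.0 and 22.2 TPM in Col and 17.6 and 19.3 in mta (-0.25 ± 0.0792, adjusted p = 0.056), and COI1 overlapped, with 14.1 and 15.1 against 14.7 and 15.5 TPM (0.05 ± 0.0865, adjusted p = 0.711).

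The fallen members were JAZ1, MYC2 and VSP1. JAZ1 fell from 12.04 and 11.3 TPM to 6.86 and 8.58 (-0.54 ± 0.124, adjusted p = 0.0173), MYC2 from 14.1 and 14.9 to 10.4 and 11.2 (-0.40 ± 0.092, adjusted p = 0.0172) and VSP1 from 2.51 and 1.88 to 0.676 and 0.982 (-0.80 ± 0.209, adjusted p = 0.0282). VSP2 had 9.90 and 12.6 TPM in Col and 7.16 and 9.06 in mta (-0.43 ± 0.15, adjusted p = 0.0775). The calls on JAZ1, MYC2 and VSP1 were all lost without mta replicate 1 (adjusted p = 0.0721, 0.0789 and 0.113). They were also lost once the median difference over all genes was set to 0 (adjusted p = 0.0578, 0.0861 and 0.0617), but passed with edgeR (0.00836, 0.00868 and 0.0154).

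**Figure D4:**
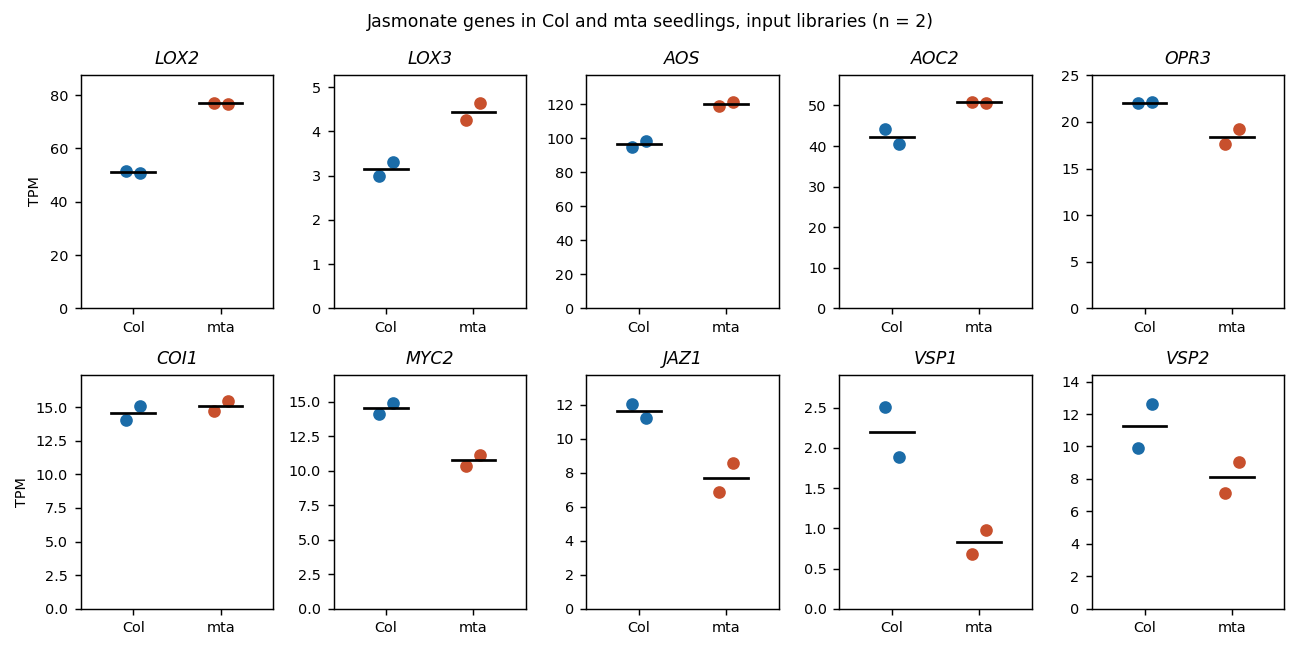
TPM of each gene in Col and mta seedling input libraries, on linear axes from 0 that differ between panels. Points are libraries and lines the means of 2. LOX2, AOS and AOC2 lie higher in mta, JAZ1, MYC2 and VSP1 lower, and only COI1 has overlapping points.

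Other genes of the pathway showed no common direction in mta. Their counts, and those of the wound and touch genes below, stand beside 6.31% of all genes higher and 20.6% lower. Of 12 tested synthesis genes 1 was higher and 4 lower: AOC1 rose (log2 0.38, adjusted p = 0.0305), while AOC3 fell from a mean of 8.19 to 3.26 TPM (-1.11, adjusted p = 0.00123), and AOC4 (-0.61), KAT2 (-0.60) and ACX1 (-0.17) also fell. The cyclase family thus split, with AOC1 and AOC2 higher and AOC3 and AOC4 lower. Of 9 turnover genes ILL6 rose (0.40, adjusted p = 0.0126) and CYP94B1 fell (-0.48, adjusted p = 0.0268). Of 10 JAZ and corepressor genes JAZ9 rose (0.70, adjusted p = 0.00642) and JAZ11 (-0.42), JAZ12 (-0.25) and TPL (-0.20) fell.

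Of 6 tested transcription factor genes 0 passed in limma or edgeR, and 0 had an unadjusted p under 0.05 in either. Of 3 response genes CORI3 rose (0.58, adjusted p = 0.0333) and TAT3 fell (-1.21, adjusted p = 0.00607). With the median difference set to 0, ACX1, CYP94B1, JAZ11, JAZ12 and TPL no longer passed, while AIM1 and ST2A passed as higher. By contrast, edgeR called 3 turnover genes and 1 JAZ or corepressor gene lower. Over all genes edgeR called 2993 higher and 2686 lower. Of 7 tested wound and touch genes WRKY40 (0.83), WRKY33 (0.77) and TCH3 (0.73) rose and ZAT12 (-0.75) fell. Once the median difference was set to 0, ZAT12 no longer passed (adjusted p = 0.103) and TCH4 passed as higher (0.0238). The root markers PYK10 (-0.17) and PHT1;1 (-0.83) fell, and of the leaf markers RBCS1A rose (0.37) while CAB1 was at 0.003 (adjusted p = 0.769). After the same setting to 0, PYK10 no longer passed (adjusted p = 0.294) and CAB1 passed as higher (log2 0.14, adjusted p = 1.38e-05). The calls on PHT1;1 and RBCS1A were kept. The part of organ proportions in the members' changes was not tested.

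At the m6A sites, 31 of the 38 listed member positions had at least 20 reads in both genotypes. The fraction was lower in mta at 15 and higher at 16 (48.4% lower, against 48.8% of all such positions). Among the 16 with a fraction of at least 0.1 in Col, 11 were at or below 2/3 of the Col fraction in mta (68.8%, against 42.8% of all eligible positions), a class called MTA-dependent here, and 7 of these 11 were in LOX2. Taking positions that are high in Col favours lower values in mta, so this count is a description and is not support for a loss in the members. The sites of 1 gene share their reads, and MYC2 and VSP1 had no listed position in this table.

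The 17 LOX2 positions were split, with 9 lower and 8 higher in mta and median fractions of 0.0961 in Col and 0.0990 in mta. The 7 with at least 0.1 in Col were all in the MTA-dependent class. The 8 that were higher in mta all lay below 0.1 in Col, so none of them counted among the eligible positions. The LOX2 3'UTR site at 16529307 went from 0.506 (83 reads) in Col to 0.139 (99 reads) in mta, and the CDS site at 16528156 from 0.286 (106) to 0.102 (167). The others fell from 0.242 to 0.099 (16528838), 0.179 to 0.095 (16528590), 0.148 to 0.085 (16525580), 0.124 to 0.039 (16526394) and 0.11 to 0.054 (16529135). Of the 8 higher positions, the most extreme, at 16525446 (GTAGA), went from 0 (46 reads) to 0.732 (100 reads).

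Losses in other members rested on few reads. The AOS 3'UTR site at 17097656 went from 0.816 (52 reads) to 0 (65), the OPR3 3'UTR site at 2359211 from 0.592 (25) to 0 (21), and the COI1 3'UTR sites at 16672784 and 16672624 from 1 (22) to 0 (22) and from 0.345 (20) to 0.048 (28). The AOS CDS site at 17099148 barely moved at a higher depth, from 0.109 (203 reads) to 0.105 (231). AOC2 sites were not lower: 0.133 and 0.159 at 9407014 and 0.096 and 0.116 at 9407524.

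The broad JAZ1 3'UTR site went the other way. At 6623327 the fraction was 0.094 in Col (46 reads) and 1 in mta (21 reads), although wild-type seedlings of the tissue experiment had 0.45 (72 reads), so the Col values of the 2 experiments differed as well. JAZ1 also had 0.18 and 0.279 at 6622843 and 0 and 0.218 at 6623369. In VSP2 the AGACT shared with VSP1 had 0.252 in Col (32 reads) and 0.204 in mta (31), and 8501648 had 0 and 0.22. The remaining OPR3 positions with enough reads had 0.038 and 0.08 (2360249) and 0.753 and 1 (2361773).

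**Figure D5:**
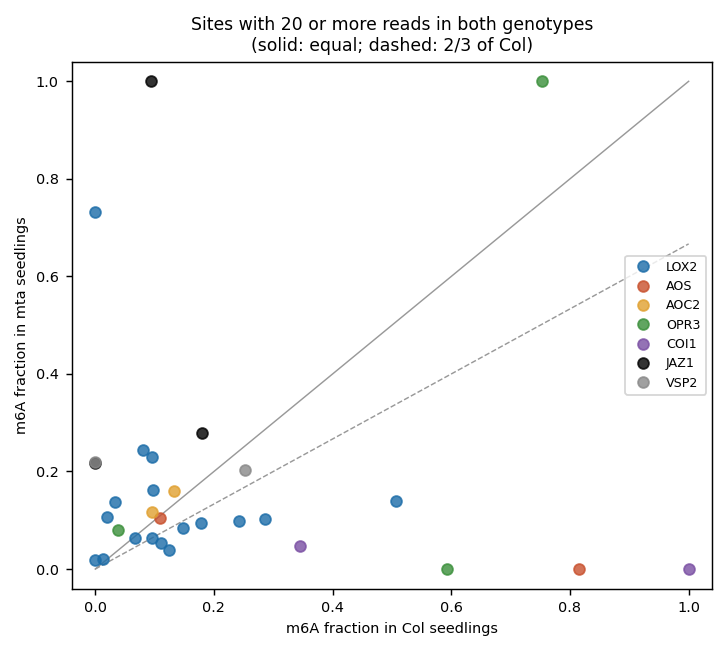
m6A fraction in mta against Col seedlings at the 31 member positions with at least 20 reads in both, 1 point each, pooled over 2 replicates. The solid line marks equal fractions and the dashed line 2/3 of Col. Of the 16 points at 0.1 or more in Col, 11 lie on or below the dashed line (7 LOX2, 2 COI1, 1 AOS, 1 OPR3), and a JAZ1 point lies at 1 in mta and 0.094 in Col.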

How the data were processed

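Expression in the 9 tissues came from the deposited table of raw gene counts, and that of Col and mta seedlings from TPM values computed by the authors, which were whole multiples of 1 read for 100% of values under 50 reads (within 0.05). The authors ran their m6A-SACseq pipeline on TAIR10, with aligner and counter not given in the sources used here. The deposited m6A tables hold a fraction, a depth (a count of reads) and the authors' calling mark per position, pooled over replicates and calibrated on spike-in probes by motif. Fraction times depth is therefore not a read count, and no interval is given.

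Tissues were tested with edgeR 4.0.16 (quasi-likelihood, TMM, filterByExpr) in 1 fit of 18 input libraries, and mta against Col with limma 3.58.1 (trend) on log2(TPM + 1) where the mean reached 1 TPM. Adjustment was by Benjamini-Hochberg over all genes tested, at 0.05. On simulated data, 93.5% of 200 genes changed by 1 on the log2 scale were recovered for root (6.5% of calls false, 19977 genes). For mta, limma recovered 78.5% (16.5% false, 18388 genes) and edgeR on recovered reads (8912294 to 10784398 a library) 92% (0.541% false, 18381 genes). Only 200 genes were changed, at a fixed spread and without a general shift, so these false shares need not hold for the data.

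The members and lists were chosen with earlier results of these data known. The text names all 10 members, up to 3 genes a list with further ones picked after their values were seen, the genes most like each member, and member sites by highest mean, widest range or reads in both genotypes. Sites called in most tissues and the shared VSP sequence were picked after the values were seen. Alternatives were DESeq2 1.42.0 and its size factors, no filter, treated libraries, a pseudocount of 0.1, edgeR on recovered reads, other depth and fraction limits, a replicate block and leaving out each library. Library totals, leaving out seed, setting the median difference to 0 and restricting motifs were added after seeing the data.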

Additional observations from a re-analysis of the deposited data

How the results depend on the processing

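The tissue results changed little: 10 of 10 members passed the F test under every alternative run. In the tests against the other 8 tissues, 45 combinations were higher and 28 lower, and leaving out 1 library at a time gave 44 to 46 and 26 to 28, 333 to 337 tissue pairs and 9 or 10 members with a highest tissue above all others. With library totals as the scaling, an alternative chosen after seeing the data, AOS was lower in rosette leaf than in root (log2 -0.14) and 8 members had a highest tissue above all others. Without the seed libraries, also chosen after seeing the data, MYC2 in root minus stem was at log2 -0.0121. The cause of either change was not tested. Replicate numbers paired nothing: deviations of same-numbered libraries correlated at -0.0377 to 0.0336 over 36 tissue pairs and at 0.073 for Col and mta. A replicate block gave 10, 45, 28 and 337 as before, 3 members higher and 4 lower in mta, VSP2 being added (adjusted p = 0.027), and 1132 and 3634 genes in all.

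In mta, 1162 of all genes were higher and 3794 lower. edgeR on recovered reads gave 2993 higher and 2686 lower, so the excess of lower genes was not kept. Setting the median difference to 0 gave 2083 higher and 2133 lower, and 0 members lower in place of 3, although 3 had an unadjusted p under 0.05. Leaving out 1 library at a time gave 2 to 3 members higher, 0 to 2 lower, 792 to 997 of all genes higher and 2707 to 2913 lower. VSP1 was not called in treated libraries (adjusted p = 0.651). For sites, a fraction of at least 0.1 without the mark raised 284 combinations to 471, restricting to RAC or GAT motifs lowered 135 sites to 81 by its construction, and a depth of at least 50 lowered 11 MTA-dependent sites to 7 of 9 eligible.

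Depth limits single sites: outside LOX2, the losses in mta rest on 20 to 65 reads a position, and LOX2, VSP1 and VSP2 had no reads in seed. In mta, 2 libraries a group limit calls near the threshold, and those on JAZ1, MYC2, VSP1 and AOC2 changed with 1 library. The share of false calls in these data is not known, since the simulated 16.5% came from only 200 changed genes.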
